A study of Mus musculus with 8 samples.

Results

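The cytosolic and mitochondrial chaperones were followed as a set of 36 genes, named by family: Hsp90 with its cochaperones, Hsp70 and Hsp110, J-domain proteins (Hsp40), small heat shock proteins, the TRiC chaperonin, prefoldin, the chaperones of the mitochondrial matrix, and the transcription factor Hsf1. Of these, 34 genes had at least 1 probe that the array annotation names, and 30 had a probe detected on at least 4 of the 8 arrays and were tested, out of 9062 tested genes in all. No probe was named for Hsp90ab1 or Hsf1, and the probes of Hspa1b, Dnaja1, Cct2 and Pfdn1 stayed below the detection filter. The members were chosen by name and not by their values. Gene expression was measured on Illumina mouse bead arrays in intestinal organoids, which are three-dimensional epithelial cultures grown from intestinal tissue.

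For 18 h, 4 samples were exposed to 3 ng/ml of TGF-beta, and 4 samples were left untreated. All 8 came from mice of a C57Bl background aged 3 to 4 months, were labelled Apc-mutated and received tamoxifen, with growth factors withdrawn from the medium after tamoxifen was added. The controls therefore share the Apc lesion, the tamoxifen and the withdrawal of growth factors with the treated samples, and no organoid with intact Apc was analysed here. The sources used here name neither the driver of the recombination nor the mice or cultures behind the replicates, so p-values measure the spread between these samples only. Part of that spread may be technical. The replicates also fall into sets that differ in Xist and in a Y-linked gene, as given below.

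Chaperones bind unfolded or partly folded proteins. Hsp70 takes up exposed hydrophobic segments in a cycle driven by ATP, J-domain proteins deliver the substrate and start the cycle, and nucleotide exchange factors such as the Bag proteins end it. Hsp90 with its cochaperones matures kinases and steroid receptors, TRiC folds actin and tubulin that prefoldin hands over, and the Hsp60 chaperonin does similar work in mitochondria. When unfolded proteins accumulate, the factor Hsf1 binds heat shock elements, which are inverted repeats of nGAAn, and raises many of these genes together. The intestinal epithelium renews itself continuously, and its dividing cells make large amounts of protein.

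Between 14554 and 16108 probes were detected on the TGF-beta arrays and between 15281 and 16626 on the untreated arrays. The TGF-beta targets Skil, Pmepa1, Cdkn2b and Rhob all rose in the treated samples (4 of 4 tested check genes). Of the 6 genes listed for this check, 5 had a named probe, and Smad7 was detected on 0 arrays. All 10 epithelial markers were measured, and their summed normalized intensity was 47924 to 58536 in TGF-beta samples and 22699 to 26885 in untreated samples. By their brightest probes, 6 of these markers rose (Epcam, Cdh1, Krt8, Krt18, Krt19 and Vil1), Cdx2 fell (-1.04), and Cdx1, Cldn7 and Elf3 did not pass (limma). Epcam was detected on 4 TGF-beta and 0 untreated arrays, so it met the detection filter only through the treated samples. A dimmer Cdx1 probe was lower (-0.82, limma adjusted p = 0.049), and a dimmer Cdh1 probe gave 0.06 and did not pass. The bright keratins Krt8, Krt18 and Krt19 weigh most in the sum. Of 10 fibroblast and smooth muscle markers, 8 were detected on 3 arrays at most, among them Col1a1, Col1a2, Col3a1, Dcn, Lum and Pdgfra. The summed intensity of that list was 480 to 666 in TGF-beta samples and 740 to 1743 in untreated samples. Among its 2 tested genes, Vim fell (8.26 in TGF-beta and 9.68 in untreated samples, difference -1.42, limma adjusted p = 0.021; -0.59 within replicates 1 and 4, and -2.26 within replicates 2 and 3) and Acta2 did not pass (0.70). Vim weighs most in that sum, and the other tested probes of Acta2 gave 0.04 and -0.08. All 5 endothelial markers were detected on 3 arrays at most (summed intensity 126 to 141 in TGF-beta and 131 to 156 in untreated samples), as were Ptprc and Lyz2 among 4 immune markers with a named probe (132 to 154 in TGF-beta and 126 to 147 in untreated samples). The immune marker Cd3e was detected on all 8 arrays (5.61 in TGF-beta and 5.38 in untreated samples) and Csf1r on 5. Neither passed (differences of 0.24 and 0.05). The part of the epithelial and fibroblast lists in the results below was not tested. The arrays fell into a set of replicates 1 and 4 and a set of replicates 2 and 3 that crosses the treatment: Xist averaged 4.58 and 9.66 in these sets on the log2 scale, and the Y-linked Eif2s3y 8.35 and 4.58. Each result below was therefore also fitted with the replicate number as a block and within each set.

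The chaperones did not move as a unit. Bag3 and Dnajb6 rose, the 3 mitochondrial genes Hspd1, Hspe1 and Hspa9 fell, and 25 of the 30 tested members did not pass the threshold (limma, adjusted p of 0.05, two-sided, adjusted over all tested probes). The 2 rises compare with 9.57% of all tested genes called higher, and the 3 falls with 9.88% called lower. In either direction, 16.7% of the members were called, against 19.4% of all tested genes. Before adjustment, 10 of the 30 had a p under 0.05, against 32.9% of all tested genes. With the replicate number as a block, 3 members were higher, against 14.4% of all tested genes, and 9 were lower, against 17.3% (31.6% in either direction). The additional calls were Hspb1, which was higher, and Hspb8, Hsph1, Hsp90aa1, Ahsa1, Fkbp4 and Cct4, which were lower. The median difference of the 30 members, TGF-beta minus untreated, was -0.20 on the log2 scale, against -0.05 for all tested genes, and 73.3% of members had a negative difference, against 54.8% of all tested genes. In organoids, as in any bulk sample, a smaller share of cells of a type and less RNA per cell cannot be told apart.

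**Figure D1:**
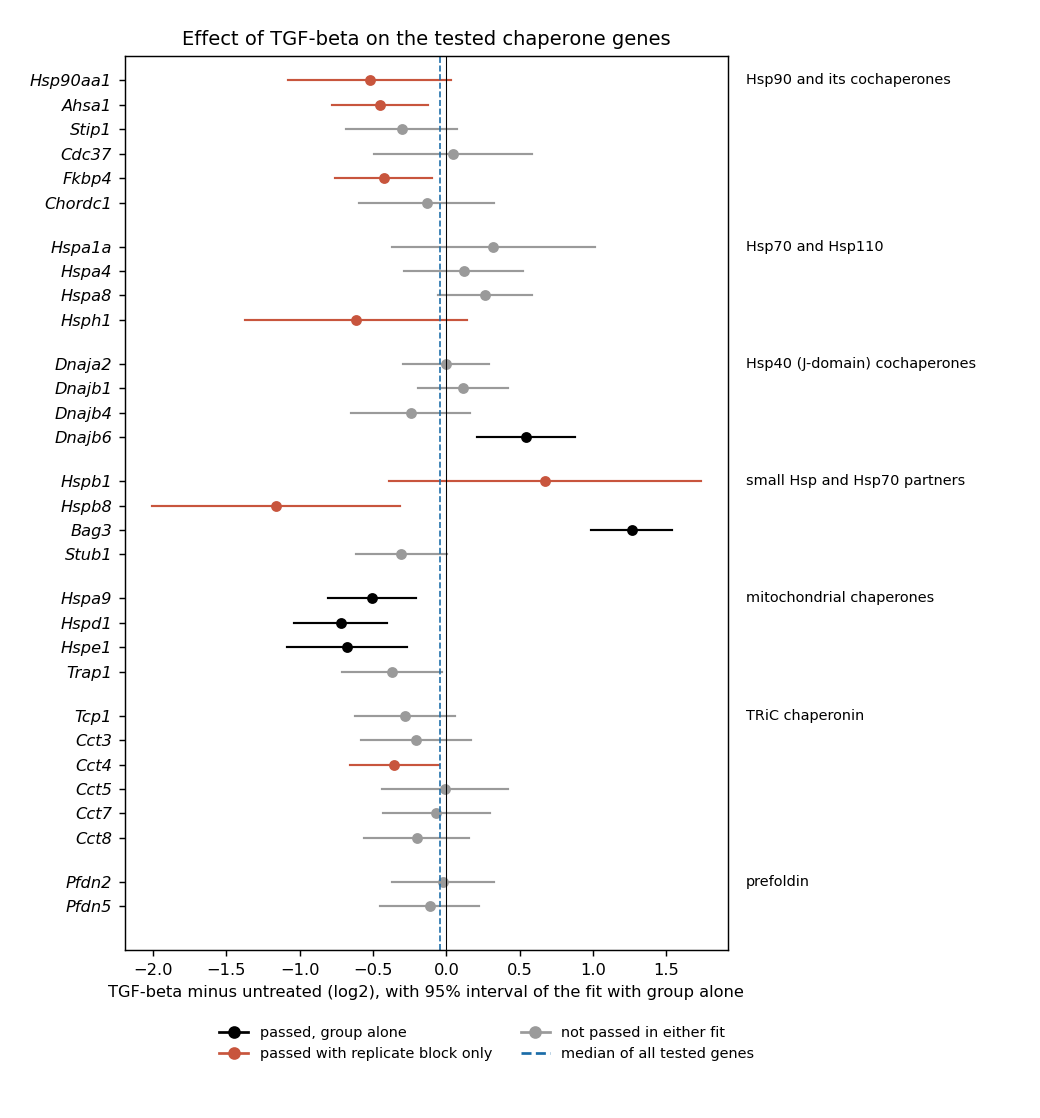
Difference between TGF-beta and untreated samples (log2) for the 30 tested chaperone genes, grouped by role, with the 95% interval of the fit with group alone. Black marks genes past the threshold in that fit, orange those past it only with the replicate block, grey the rest, and the dashed line is the median of all tested genes (-0.05). Bag3 and Dnajb6 lie to the right of 0 and the 4 mitochondrial genes to the left of it.

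Of the 30 tested members, Bag3 had the highest difference. It encodes a cochaperone that releases substrate from Hsp70 and, with small heat shock proteins, carries damaged cytoskeletal proteins to autophagy. The log2 normalized intensity of its probe (ILMN_1226195) was 11.41, 11.30, 11.28 and 11.29 in TGF-beta replicates 1 to 4, against 10.08, 9.93, 10.02 and 10.19 in untreated replicates 1 to 4. The groups did not overlap and were more than 1 unit apart. Groups without overlap, whatever the size of the gap, were seen for 8 of the 30 members and 24.8% of all tested genes. Bag3 was 2.40-fold higher (difference 1.26, SE 0.125, limma adjusted p = 0.00014). Its difference was 1.21 within replicates 1 and 4, and 1.32 within replicates 2 and 3. The window around its RefSeq start site on the forward strand (chr7:128523333-128523632, GRCm38.p6, 250 bases before to 50 after the start) is shown because Bag3 is a known Hsf1 target in human cells. Capitals mark a copy of GAANNTTC, a pair of inverted heat shock units, which ends the window.
Bag3: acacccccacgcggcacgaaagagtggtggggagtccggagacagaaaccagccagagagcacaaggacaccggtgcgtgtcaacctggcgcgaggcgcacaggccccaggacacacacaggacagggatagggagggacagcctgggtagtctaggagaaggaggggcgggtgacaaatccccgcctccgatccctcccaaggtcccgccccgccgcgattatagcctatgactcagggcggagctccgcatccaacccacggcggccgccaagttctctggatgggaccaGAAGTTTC

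The small heat shock proteins are the partners of Bag3 in that pathway, and the calls of the members Hspb8 and Hspb1 depended on how the replicates were treated. Of 3 tested small heat shock proteins in the wider list, 2 did not pass. The other, Hspb6, was lower with group alone (limma adjusted p = 0.016) and with the replicate block (adjusted p = 0.0052). Hspb8, the main small heat shock partner of Bag3 in mammalian cells, gave 6.39, 5.83, 5.27 and 6.46 in TGF-beta replicates 1 to 4, against 7.83, 6.70, 6.29 and 7.79 in untreated replicates 1 to 4. It was lower with TGF-beta in each of the 4 numbered pairs, but untreated replicate 3 lay below TGF-beta replicates 1 and 4, so the groups overlapped. With group alone the difference of -1.16 (SE 0.380) did not pass (limma adjusted p = 0.061). With the replicate block it passed (SE 0.140, limma adjusted p = 0.00037), as it did within replicates 1 and 4 (-1.38, adjusted p = 0.0022), within replicates 2 and 3 (-0.94, adjusted p = 0.037) and without untreated replicate 3 (-1.45, adjusted p = 0.026). It did not pass when any of the other 7 samples was left out (adjusted p from 0.061 to 0.15), and the difference was -0.55 both without background correction and in the authors' table (limma adjusted p = 0.085 in each). Hspb1 (Hsp25 in the mouse), which caps actin filaments and keeps unfolded proteins soluble, gave 6.99, 5.88, 4.84 and 7.09 in TGF-beta replicates 1 to 4, against 5.50, 5.38, 4.89 and 6.35 in untreated replicates 1 to 4. It was higher in 3 of 4 pairs. In replicate 3, the remaining pair, it was not detected in either group, as both values lay below the lowest detected signal of their array (5.08 in TGF-beta and 5.11 in untreated). Its difference of 0.67 (SE 0.479) did not pass with group alone (limma adjusted p = 0.39) and passed with the replicate block (SE 0.218, adjusted p = 0.046) but not with the replicate set as a block (adjusted p = 0.086). Within replicates 1 and 4 it was 1.12 (limma adjusted p = 0.031), and within replicates 2 and 3 it was 0.22 (adjusted p = 0.70). Leaving out 1 sample moved it between 0.37, without TGF-beta replicate 4, and 1.12, without TGF-beta replicate 3, and it passed in none of those fits. Stub1, the ubiquitin ligase that marks Hsp70 clients for the proteasome, gave -0.31 (SE 0.139, limma adjusted p = 0.16). A second, dimmer Stub1 probe gave -0.48 and passed with the replicate block only (limma adjusted p = 0.038).

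**Figure D2:**
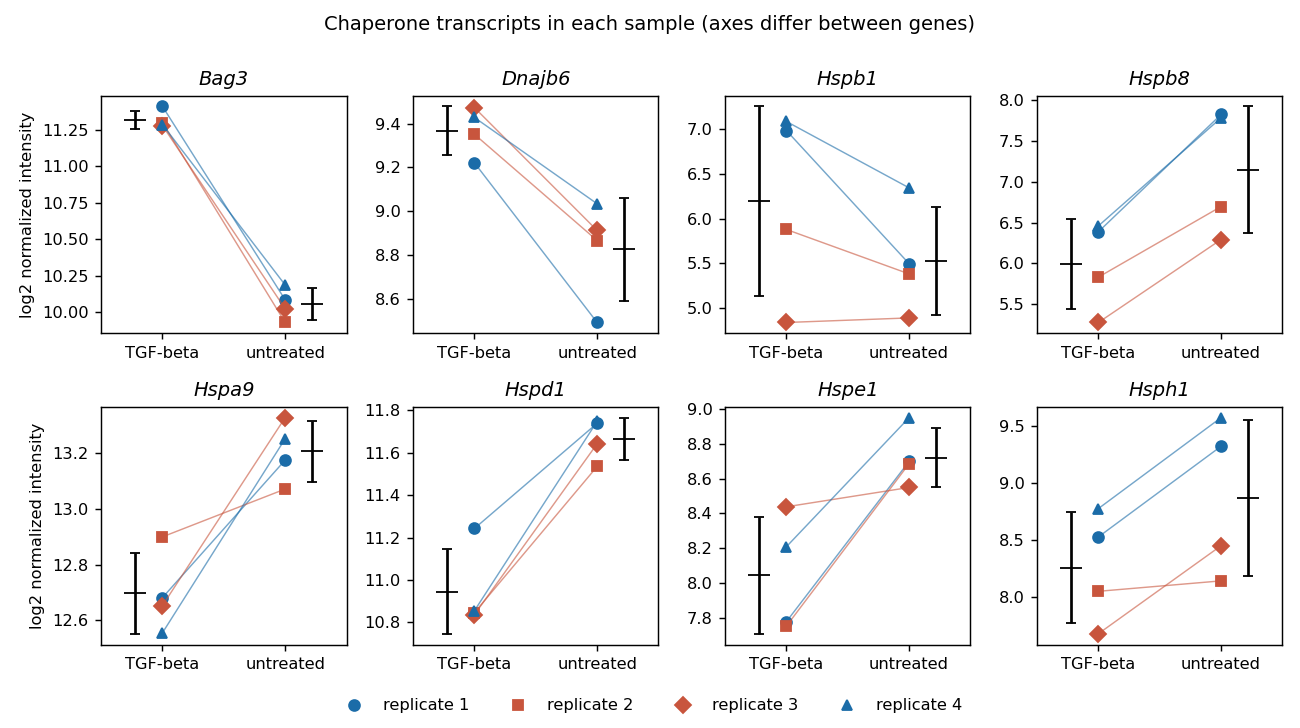
Log2 normalized intensity of 8 chaperone genes in each sample, TGF-beta on the left and untreated on the right of each panel, with lines joining samples of the same replicate number and black bars for the mean and SD (n = 4). Blue marks replicates 1 and 4 and orange replicates 2 and 3. The treatment groups do not overlap for Bag3, Dnajb6, Hspa9, Hspd1 and Hspe1 and overlap for Hspb1, Hspb8 and Hsph1, and the replicate sets are in the same order in both groups for Hspb1, Hspb8, Hspd1 and Hsph1.

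Among the J-domain proteins, Dnajb6 rose. It encodes a cochaperone of Hsp70 known for holding back the aggregation of polyglutamine proteins. Its brightest probe (ILMN_3107377) gave 9.22, 9.35, 9.47 and 9.43 in TGF-beta replicates 1 to 4, against 8.49, 8.87, 8.91 and 9.03 in untreated replicates 1 to 4. The groups did not overlap, and untreated replicate 1 was the lowest value. Dnajb6 was 1.46-fold higher (difference 0.54, SE 0.152, limma adjusted p = 0.033), and its other 2 tested probes rose by 0.53 and 0.57 (limma adjusted p = 0.040 and 0.020). The call was lost when any of TGF-beta replicates 2, 3 or 4 or untreated replicates 1, 2 or 3 was left out (differences of 0.43 to 0.57, limma adjusted p from 0.059 to 0.088). It was also missed within either replicate set (0.56, limma adjusted p = 0.13, in replicates 1 and 4; 0.52, adjusted p = 0.090, in replicates 2 and 3). With arrays scaled to equal medians the difference was 0.38 (limma adjusted p = 0.27), under a scaling that moved the median of all tested genes to -0.18. Dnajb1, the J-domain partner that Hsf1 induces on heat shock, gave 10.12, 10.29, 10.22 and 9.87 in TGF-beta replicates 1 to 4, against 9.97, 10.10, 10.001 and 9.96 in untreated replicates 1 to 4. These groups overlapped, with a difference of 0.11 (95% interval -0.19 to 0.42, limma adjusted p = 0.63). Dnaja2, a general J-domain cochaperone, gave -0.0021 (95% interval -0.30 to 0.29) and Dnajb4 -0.24 (95% interval -0.65 to 0.16, detected on 2 TGF-beta and 4 untreated arrays). Dnaja1 had no probe detected on more than 1 array.

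Dnajb6 has a full heat shock element of 3 units, GAANNTTCNNGAA, upstream of both start sites that RefSeq lists. The window of its first start site on the forward strand (chr5:29735648-29735947, GRCm38.p6) is shown with that element in capitals, at positions -46 to -34 from the start site.
Dnajb6: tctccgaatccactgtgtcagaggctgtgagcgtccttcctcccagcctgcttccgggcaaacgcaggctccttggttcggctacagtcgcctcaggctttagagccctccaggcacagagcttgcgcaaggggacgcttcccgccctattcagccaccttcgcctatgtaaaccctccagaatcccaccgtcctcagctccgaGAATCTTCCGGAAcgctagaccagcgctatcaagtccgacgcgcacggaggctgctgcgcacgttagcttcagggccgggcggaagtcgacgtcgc

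Among the 4 tested mitochondrial members, Hspd1, Hspe1 and Hspa9 fell, Trap1 did not pass, and 0 rose (limma; 9.88% of all tested genes were called lower). Before adjustment all 4 were lower at a p under 0.05, which 32.9% of all tested genes reached in either direction. Hspd1 encodes Hsp60, the chaperonin barrel of the matrix. Its brightest probe (ILMN_2713841) gave 11.24, 10.85, 10.84 and 10.86 in TGF-beta replicates 1 to 4, against 11.74, 11.53, 11.64 and 11.75 in untreated replicates 1 to 4. The groups did not overlap, and TGF-beta replicate 1 stood above the other 3 treated samples. Hspd1 was 1.65-fold lower (difference -0.72, SE 0.143, limma adjusted p = 0.0066), and its second probe gave -0.82 (SE 0.151, limma adjusted p = 0.0044). It passed in all 21 alternative settings, with differences from -0.85 to -0.66, and its difference was -0.69 within replicates 1 and 4, and -0.75 within replicates 2 and 3.

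Hspe1 encodes Hsp10, the lid that closes the Hsp60 barrel. It gave 7.78, 7.75, 8.44 and 8.21 in TGF-beta replicates 1 to 4, against 8.70, 8.69, 8.55 and 8.95 in untreated replicates 1 to 4. The groups did not overlap, although replicate 3 differed little between them. Hspe1 was 1.599-fold lower (difference -0.68, SE 0.184, limma adjusted p = 0.029). It missed the threshold when TGF-beta replicates 1 or 2 or untreated replicates 1, 2 or 4 were left out (differences of -0.69 to -0.58, limma adjusted p from 0.060 to 0.076), within replicates 2 and 3 (-0.52, adjusted p = 0.20) and without the detection filter (adjusted p = 0.053).

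Hspa9 encodes mortalin, the Hsp70 of the matrix, which pulls precursors through the inner membrane. It gave 12.68, 12.90, 12.65 and 12.56 in TGF-beta replicates 1 to 4, against 13.17, 13.07, 13.33 and 13.25 in untreated replicates 1 to 4. Replicate 2 was the highest treated and the lowest untreated sample, and the groups did not overlap. Hspa9 was 1.42-fold lower (difference -0.51, SE 0.134, limma adjusted p = 0.026), and its second probe gave -0.57 (limma adjusted p = 0.018). The call was lost without TGF-beta replicates 1, 3 or 4 or untreated replicates 1, 3 or 4 (differences of -0.52 to -0.46, limma adjusted p from 0.054 to 0.075), and in either replicate set alone (-0.59, adjusted p = 0.0503, in replicates 1 and 4; -0.42, adjusted p = 0.20, in replicates 2 and 3). Trap1, the Hsp90 of the matrix, gave -0.37 (SE 0.153, limma adjusted p = 0.13), and passed only with the set as a block (adjusted p = 0.047) and without TGF-beta replicate 1 (-0.49, adjusted p = 0.049).

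Hspd1 and Hspe1 are neighbours that are transcribed away from each other. Their RefSeq start sites lie 216 bases apart, and 285 bases of their promoter windows are shared. RefSeq lists a second start site for Hspd1, 95 bases inside Hspe1. The Hspe1 window (chr1:55087898-55088197, forward strand, GRCm38.p6) is shown because both genes fell. Its capitals mark a run of overlapping 3-unit heat shock elements, GAANNTTCNNGAA read on either strand, at positions -89 to -72 from the Hspe1 start and -144 to -127 from that of Hspd1.
Hspe1 and Hspd1: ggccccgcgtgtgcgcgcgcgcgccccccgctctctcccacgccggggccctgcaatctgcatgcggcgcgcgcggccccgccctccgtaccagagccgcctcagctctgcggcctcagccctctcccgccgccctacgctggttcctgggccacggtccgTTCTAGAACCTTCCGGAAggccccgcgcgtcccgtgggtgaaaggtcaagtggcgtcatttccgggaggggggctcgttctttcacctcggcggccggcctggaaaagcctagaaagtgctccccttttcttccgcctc

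Of 7 other tested genes of mitochondrial protein import and quality control, 3 fell, 4 did not pass and 0 rose (limma; 9.88% of all tested genes were called lower). Before adjustment 5 were lower at a p under 0.05. Clpp, the proteolytic core of a matrix protease, averaged 8.92 ± 0.11 in TGF-beta and 9.50 ± 0.07 in untreated samples (SD, n = 4; difference -0.59, SE 0.126, limma adjusted p = 0.010), although its second probe gave -0.43 and did not pass (limma adjusted p = 0.087). Lonp1, another matrix protease, averaged 8.68 ± 0.16 in TGF-beta and 9.32 ± 0.18 in untreated samples (SD, n = 4; difference -0.64, SE 0.147, limma adjusted p = 0.014). Timm44, which tethers mortalin to the import channel, averaged 8.83 ± 0.15 in TGF-beta and 9.26 ± 0.04 in untreated samples (SD, n = 4; difference -0.44, limma adjusted p = 0.041), and all 3 of its tested probes fell. Timm44 lies outside the rule for named genes and was added after its values were seen. Dnaja3, the J-domain partner of mortalin, was listed among the J-domain proteins and averaged 10.02 ± 0.08 in TGF-beta and 10.62 ± 0.02 in untreated samples (SD, n = 4; difference -0.61, SE 0.120, limma adjusted p = 0.0064). Grpel2, a nucleotide exchange factor of mortalin, was the 1 gene of 7 with a positive difference (0.25, limma adjusted p = 0.35).

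Set side by side, the 11 tested genes listed under mitochondrial roles had a median difference of -0.44, with 6 lower and 0 higher (7 and 0 with the replicate block, and 9 and 0 before adjustment at a p under 0.05). The other 68 tested chaperones and cofactors had a median of -0.12, with 4 higher and 4 lower (7 and 12 with the replicate block, and 7 and 11 before adjustment). The 15 tested chaperones of the endoplasmic reticulum, the compartment where secreted proteins fold, had a median of 0.01, with 0 higher and 0 lower (limma; before adjustment also none at a p under 0.05, and 1 lower with the replicate block). Of these, Hspa5 (5.34 in TGF-beta and 5.22 in untreated samples, detected on 6 arrays) and Hyou1 (5.39 and 5.30, on 7) lay near the detection limit. Serpinh1 was also detected on only 7 arrays, and Canx and Manf were listed but not tested. Over all tested genes, 9.57% were higher and 9.88% lower, 14.4% and 17.3% with the replicate block. Genes were classed by the role they were listed under. The mitochondrial J-domain proteins Dnaja3 (-0.61, called lower), Dnajc15 (-0.35, not passed) and Dnajc19 (-0.38, not passed) were therefore counted among the other 68. These counts and medians describe the lists, and no test between the compartments was made.

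**Figure D3:**
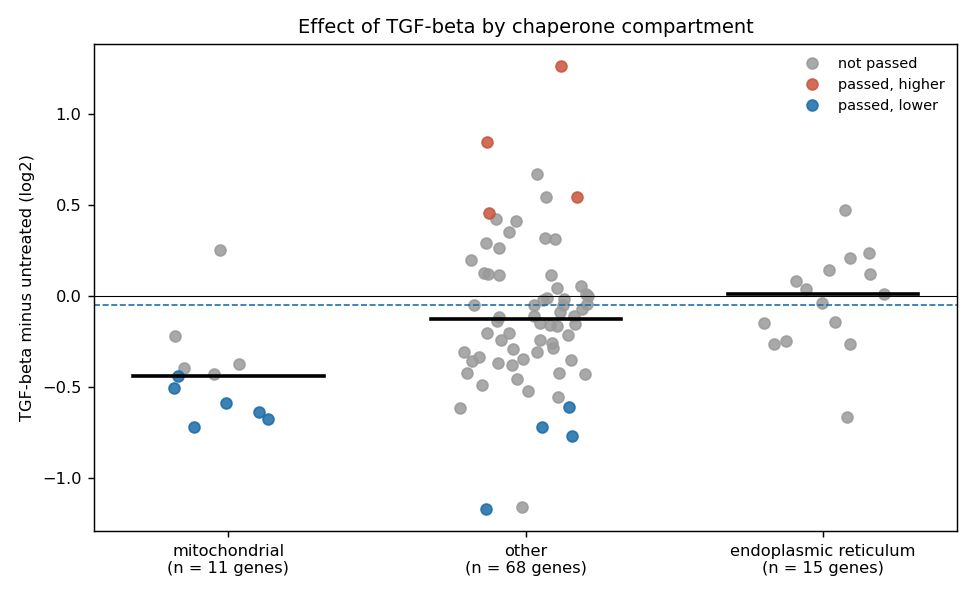
Difference between TGF-beta and untreated samples (log2) for each tested chaperone or cofactor gene, by compartment, with a black bar at the median of each class and the dashed line at the median of all tested genes. Classes follow the listed role, so the J-domain proteins Dnaja3, Dnajc15 and Dnajc19 are plotted under other. Of 11 genes listed as mitochondrial, 6 passed and all 6 were lower, while none of the 15 genes of the endoplasmic reticulum passed (limma, group alone).

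Hsp90 and its cochaperones had 0 calls in either direction among 6 tested genes with group alone (limma), where 19.4% of all tested genes were called. Before adjustment 2 were lower at a p under 0.05, which 32.9% of all tested genes reached in either direction. With the replicate block 3 were called lower, against 17.3% of all tested genes. Hsp90aa1, the stress-inducible Hsp90, gave 9.49, 9.22, 8.603 and 9.86 in TGF-beta replicates 1 to 4, against 9.71, 9.85, 9.57 and 10.13 in untreated replicates 1 to 4. Every numbered pair was lower with TGF-beta, by most in replicate 3, and the groups overlapped. The difference of -0.52 (95% interval -1.08 to 0.03) had a limma adjusted p of 0.19 with group alone and of 0.031 with the replicate block, and a second, dimmer probe gave -0.10 and passed in neither fit. The replicate block was the only one of the 21 alternatives in which Hsp90aa1 passed, and with the replicate set as a block its adjusted p was 0.058 (limma). Within replicates 1 and 4 the difference was -0.25, and within replicates 2 and 3 it was -0.80. Leaving out 1 sample moved it between -0.71, without TGF-beta replicate 4, and -0.29, without TGF-beta replicate 3. Ahsa1, which stimulates the ATPase of Hsp90, averaged 7.88 ± 0.07 in TGF-beta and 8.33 ± 0.23 in untreated samples (SD, n = 4). Its difference of -0.45 had a limma adjusted p of 0.058 with group alone and 0.031 with the replicate block. Leaving out untreated replicate 3 gave an adjusted p of 0.041 (limma). Fkbp4, an immunophilin that binds Hsp90 in steroid receptor complexes, averaged 11.41 ± 0.24 in TGF-beta and 11.84 ± 0.06 in untreated samples (SD, n = 4). Its difference of -0.43 had a limma adjusted p of 0.075 with group alone and 0.035 with the replicate block. Leaving out TGF-beta replicate 1 gave an adjusted p of 0.025 (limma). The groups of Ahsa1 and Fkbp4 did not overlap. Both genes also passed in the authors' table (limma adjusted p = 0.030 for Ahsa1 and 0.031 for Fkbp4). Stip1, which links Hsp70 to Hsp90, gave -0.31, Chordc1 -0.14 and the kinase-loading cochaperone Cdc37 0.05, with limma adjusted p from 0.26 to 0.93 and intervals that reach from -0.69 to 0.59.

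Further genes that the wider list classes as Hsp90 cochaperones went both ways, with 1 higher and 2 lower of 9 tested (limma). Unc45a, a chaperone that folds the myosin head together with Hsp90, averaged 10.13 ± 0.33 in TGF-beta and 9.29 ± 0.14 in untreated samples (SD, n = 4; difference 0.85, SE 0.178, limma adjusted p = 0.0090), and its second tested probe rose by 1.04. Fkbp5, an immunophilin induced by glucocorticoids, averaged 4.96 ± 0.26 in TGF-beta samples, where 1 of 4 arrays detected it, and 6.13 ± 0.44 in untreated samples, where all 4 did (SD, n = 4; difference -1.17, SE 0.227, limma adjusted p = 0.0059). The size of its fall is uncertain because the treated values lie at the detection limit. Aarsd1 averaged 7.07 ± 0.19 in TGF-beta and 7.84 ± 0.12 in untreated samples (SD, n = 4; difference -0.77, limma adjusted p = 0.0046). Over the whole wider list of 68 genes, 49 were tested, 2 rose and 7 fell (limma), with a median difference of -0.16. The 2 and 7 calls compare with 9.57% of all tested genes called higher and 9.88% called lower, so 18.4% of the list was called, against 19.4% of all tested genes. Before adjustment 5 were higher and 12 lower at a p under 0.05, and with the replicate block 4 rose and 10 fell, where 31.6% of all tested genes were called. Its remaining calls were Hspa2, a relative of Hsp70 (0.46, limma adjusted p = 0.033; a second probe did not pass), and Hspb6, a small heat shock protein (-0.72, limma adjusted p = 0.016). Hspa2 and Hspb6 were named after their values were seen.

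Of the 4 tested members from the cytosolic Hsp70 and Hsp110 families, 0 passed with group alone (limma; before adjustment also 0 at a p under 0.05). Their relative Hspa2, from the wider list, was called higher (0.46, limma adjusted p = 0.033). Over all tested genes, 19.4% were called, and 32.9% had a p under 0.05 before adjustment. Hspa8, the constitutive Hsp70, gave 13.49, 13.29, 13.27 and 13.59 in TGF-beta replicates 1 to 4, against 13.23, 13.002, 13.01 and 13.34 in untreated replicates 1 to 4. It was higher in 4 of 4 pairs, with overlapping groups and a difference of 0.26 (95% interval -0.05 to 0.58, limma adjusted p = 0.25), and its other 2 probes gave 0.25 and 0.17. Hspa1a, the Hsp70 induced by heat and other stress, gave 5.35, 5.19, 5.19 and 5.996 in TGF-beta replicates 1 to 4, against 5.78, 4.68, 4.43 and 5.55 in untreated replicates 1 to 4. These values straddle the lowest detected signals of 5.04 to 5.23, and 3 TGF-beta and 2 untreated arrays detected the transcript. Its difference of 0.32 had a 95% interval of -0.37 to 1.01 (limma adjusted p = 0.54). Hspa1b, a near-identical copy of Hspa1a on the same chromosome, had a probe detected on 2 TGF-beta and 0 untreated arrays, and signals of these copies cannot be assigned to either with certainty. Hsph1, the Hsp110 that exchanges nucleotide on Hsp70, gave 8.53, 8.05, 7.68 and 8.78 in TGF-beta replicates 1 to 4, against 9.32, 8.14, 8.45 and 9.57 in untreated replicates 1 to 4. It was lower in each pair by amounts that differed, and the groups overlapped. The difference of -0.61 (SE 0.341) had a limma adjusted p of 0.26 with group alone and of 0.016 with the replicate block (SE 0.154). It passed within replicates 1 and 4 (-0.80, adjusted p = 0.027) and not within replicates 2 and 3 (-0.43, adjusted p = 0.22), and leaving out 1 sample moved it between -0.86, without untreated replicate 2, and -0.38, without untreated replicate 4. Hspa4, another Hsp110, gave 0.12 (95% interval -0.29 to 0.52).

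The TRiC chaperonin and prefoldin had 0 calls with group alone among 8 tested genes (limma), where 19.4% of all tested genes were called. Before adjustment 1 was lower at a p under 0.05, which 32.9% of all tested genes reached in either direction. All 6 tested TRiC subunits had a negative difference, from -0.36 to -0.01, with a median of -0.20, although the sign of Cct5 turned with cyclic loess, and the signs of Cct5 and Cct7 with median scaling over the tested probes. Cct4 was the subunit with the lowest difference. It averaged 11.15 ± 0.14 in TGF-beta and 11.51 ± 0.13 in untreated samples (SD, n = 4), with groups that did not overlap and a limma adjusted p of 0.10 with group alone and 0.049 with the replicate block. Tcp1 gave -0.28 (limma adjusted p = 0.24), Cct3 -0.21 and Cct8 -0.20, while Cct5 (-0.01) and Cct7 (-0.07) lay near the detection limit. A dimmer probe of Tcp1 had a 95% interval of -0.38 to 0.38. The prefoldin subunits Pfdn2 and Pfdn5 gave -0.02 (95% interval -0.37 to 0.33) and -0.11 (95% interval -0.45 to 0.22).

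Full heat shock elements were found beside members that differed in direction. The 3-unit element GAANNTTCNNGAA, searched on both strands, was present in 5 of the 29 member genes that have a promoter window in the RefSeq table (17.2%), against 179 of all 27025 genes there (0.662%). Those members were Dnajb6, which rose, Hspd1 and Hspe1, which fell, Hsph1 (-0.61), which was lower with the replicate block only, and Chordc1 (-0.14), which passed in neither fit. The matches of Hspd1 and Hspe1 are the same bases read on opposite strands, so these genes are not separate cases. The 2-unit forms GAANNTTC or TTCNNGAA, which every 3-unit element contains, were present in 17 of the 29 (58.6%), against 4587 of all 27025 genes. That count also includes Hspd1 and Hspe1 with their shared bases, and the near-identical copies Hspa1a and Hspa1b. GTCTAGAC, a palindrome bound by Smad3 and Smad4, was present in 0 of the 29 and in 0.248% of all genes. A sequence this rare would seldom be met among 29 genes, so no conclusion is drawn from its absence. The stretches of these elements are given with 8 bases on each side, read along the strand of the gene, on build GRCm38.p6. Capitals mark the 3-unit element, or for Hspb8, Hspa1a and Fkbp4 the 2-unit form. A match of letters does not show that a factor binds there.
Hspd1: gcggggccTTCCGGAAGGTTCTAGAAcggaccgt
Hspe1: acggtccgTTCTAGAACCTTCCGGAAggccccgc
Dnajb6: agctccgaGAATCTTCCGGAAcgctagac
Hsph1: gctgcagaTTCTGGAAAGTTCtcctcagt
Chordc1: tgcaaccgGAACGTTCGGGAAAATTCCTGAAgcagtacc
Hspb8: agccaggaGAAGTTTCtaggctcg
Hspa1a: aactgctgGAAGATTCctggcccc
Fkbp4: cttctctaGAAAGTTCtccgctcc

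The chaperones also differed between the replicate sets, in the same order in both groups. For 12 of the 30 members (40%), both values of replicates 1 and 4 lay above both of replicates 2 and 3 in the TGF-beta and again in the untreated samples, against 17.7% of all tested genes. The opposite order held for 2 members (6.67%), Dnajb1 and Pfdn5, against 13.8% of all tested genes. Hspb8 was 0.87 higher in replicates 1 and 4 among TGF-beta samples and 1.31 higher among untreated samples, and Hsph1 was 0.79 and 1.15 higher. Hspa1a was 0.48 and 1.11 higher, Hspb1 1.68 and 0.79, and Chordc1 0.52 and 0.57. Bag3 was not among the 12, with values of 0.06 in TGF-beta and 0.16 in untreated samples. These sets were read from the data and are not groups of the study, so the counts are a description. The effect of TGF-beta itself was not found to differ between the sets for any of the 30 members (limma interaction, smallest adjusted p = 0.55, and before adjustment 0 of 30 at a p under 0.05, against 10.1% of all tested genes), where 1 of all tested genes passed (0.011%).

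**Figure D4:**
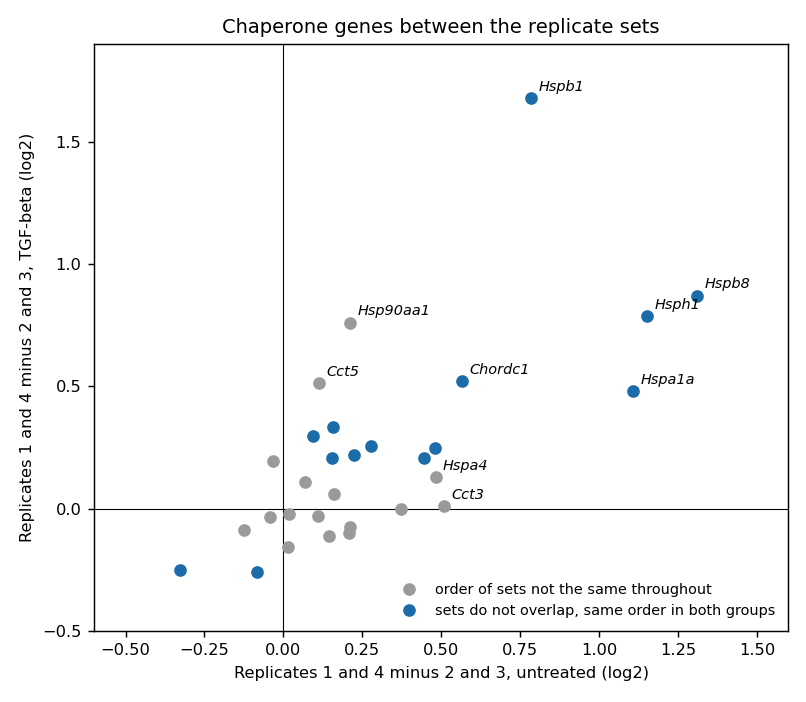
Mean of replicates 1 and 4 minus mean of replicates 2 and 3 (log2) for each of the 30 tested chaperone genes, in untreated samples on the horizontal axis and TGF-beta samples on the vertical axis. Blue marks the 14 genes whose sets do not overlap and have the same order in both groups, and Hspb1, Hspb8, Hsph1, Hspa1a and Chordc1 lie farthest to the upper right among them.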

How the data were processed

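The scanner table deposited by the authors holds 45281 probes. Per the file headers, each of the 8 samples has a signal intensity that was not normalized, next to its detection p-value. A second deposited table holds log2 values with a median of 7.1 in every column, and correlated at 0.998 or more with the log2 intensity of the same array. How the authors made it, and which scanner software was used, is not stated in the labels or headers. No per-sample column was left out.

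The background was corrected with normexp (inferred from detection p-values, offset 16), followed by quantile normalization and log2, in limma 3.58.1 under R 4.3.3. Tests covered 15573 probes with detection p under 0.05 on at least 4 of the 8 arrays. Symbols come from the platform annotation (34885 probes with 1 symbol, 18 with several, 10378 unnamed here). Of these probes, 34807 matched the RefSeq table of GRCm38.p6 and 0 symbols changed. For each gene the brightest tested probe by mean was used. Differences are TGF-beta minus untreated, from lmFit and eBayes on all 8 samples, with group as the only term. P-values are two-sided and adjusted by Benjamini-Hochberg over the tested probes, at 0.05. No level is compared between probes. The number of arrays limits the precision.

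Same-numbered samples deviated together from their group means (correlations over tested probes of 0.534, 0.512, 0.514 and 0.554), so the numbers were taken to pair the samples. The pairing is read from the values, as the labels tie the numbers to nothing. The blocked fit is given where it changes a call.

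The members and lists were chosen with earlier results of these data known. By rule, full values are given for members past the threshold and for a fixed set of stress or abundant members, and up to 6 genes with the smallest adjusted p are named from each other list. Named beyond the rule, after seeing values, were members called only with the block and the examples marked as such. Promoter windows come from the RefSeq table of GRCm38.p6, which has no entry for 7 members. The alternatives were other background corrections, normalizations, filters, variance models, probe choices, blocks, replicate sets, the authors' table and leaving out each sample. Scripts were tested on simulated data. Python 3.11.15 and matplotlib 3.10.9 made the figures.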

Additional observations from a re-analysis of the deposited data

Results flagged for a closer look

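In 3 of 60 sets of 4 values (the 30 tested members in each group), 1 sample stood far from the other 3, by a gap that took up more of the group's range than Dixon's 95% critical value allows. Chance gives about 1 in 20 such sets, which is the share seen here. For Hspd1, TGF-beta replicate 1 (11.24) stood above the other TGF-beta samples, with a gap of 0.955 of the range. For Bag3, TGF-beta replicate 1 (11.41) stood above the other TGF-beta samples, with a gap of 0.844 of the range. For Stub1, TGF-beta replicate 4 (8.04) stood above the other TGF-beta samples, with a gap of 0.947 of the range.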

How the results depend on the processing

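Bag3 and Hspd1 passed in all 21 alternatives. Over the named members, 623 values were recomputed: 539 kept their direction and side of the threshold, 32 newly passed, 24 no longer passed and 28 changed sign. The sign changes were in 8 members whose difference passed neither in the full set nor in that alternative (0 of 28 past the threshold). Within replicates 2 and 3 alone these were Cdc37 (-0.068), Dnaja2 (0.067), Cct3 (0.044) and Pfdn2 (0.12), and within replicates 1 and 4 alone Hspa4 (-0.060) and Cct5 (0.19). With median scaling they were Hspa4 (-0.052) and Dnajb1 (-0.032), over the tested probes only Cct5 (0.050), Cct7 (0.083) and Pfdn2 (0.010), with cyclic loess Dnaja2 (0.037), Cct5 (0.031) and Pfdn2 (0.043), and with the mean of the tested probes Dnaja2 (0.060). Leaving out 1 sample at a time gave values on both sides of 0 for Cdc37 (-0.11 to 0.24), Dnaja2 (-0.053 to 0.070), Cct5 (-0.15 to 0.11), Cct7 (-0.18 to 0.033) and Pfdn2 (-0.12 to 0.049). With the replicate block, members called lower numbered 9 (3 with group alone), other chaperones called higher 4 (2 with group alone), chaperones of the endoplasmic reticulum called lower 1 (0 with group alone), and all genes 1302 higher and 1566 lower (867 and 895 with group alone). With the replicate set as a block these were 9, 4, 1, 1308 and 1580, and among the 9 members Trap1 was called and Hsp90aa1 was not. Within replicates 1 and 4 alone, 5 members and 1 chaperone of the endoplasmic reticulum were lower. Within replicates 2 and 3 alone, 1 member was higher (2 in the full set), and 0 other chaperones were higher and 4 lower (2 and 7 in the full set). Without background correction 6 members were lower, as were 6 in the authors' table. Median scaling left 1 member, 0 other chaperones and 495 of all genes higher. It moved the median of all genes to -0.18 and the share of higher calls to 34.5%, against -0.05 and 49.2% with quantile normalization. The same scaling over the tested probes only, added after seeing the data, gave -0.02 and 51.8%. Leaving out 1 sample at a time gave 1 to 2 members higher, 1 to 4 members lower (1 without untreated replicate 1 and 1 without untreated replicate 4), 1 to 2 other chaperones higher, and 661 to 756 genes higher and 572 to 805 lower over all genes (572 without untreated replicate 1). The causes were not tested. Probes near the detection limit (Hspa1a, Hspb1, Cdc37, Cct5, Cct7 and Dnajb4) limit what can be said of those genes. The same holds for Hspa5 and Hyou1 in the list of the endoplasmic reticulum.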
